A study of Mus musculus with 7 samples.

Results

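The genes described here are 10 immediate-early transcription factor genes and their close relatives: the Fos-family genes Fos, Fosb and Fosl2, the Jun-family genes Jun, Junb and Jund, the zinc finger genes Egr1 and Egr3, and the stress-inducible genes Atf3 and Ier2. They were picked out by gene symbol from a list of names, drawn up with earlier results of these data known, and all 10 were found among the 14637 genes tested. The libraries were made from heart RNA of 7 mice, 4 of them without a transgene (NTG) and 3 with a heart-directed transgene for full-length Nrf2 (mNrf2-TG). Nrf2, encoded by Nfe2l2, is the transcription factor that turns on antioxidant and detoxification genes. The comparison of mNrf2-TG with NTG asks what a chronic excess of this factor changes in the unstressed heart. All mice were males of the C57/BL6J strain kept without further treatment, and the NTG mice were litter mates. The labels give the mNrf2-TG mice an age of 6 months and the series text gives 7 to 8 months for both groups. The transgene sits behind the αMHC promoter, which is active in cardiomyocytes, but the RNA came from pieces of whole tissue with every cell type of the myocardium, so fewer cells of a type and less RNA per cell cannot be told apart. Each library came from 1 mouse, and n = 4 and n = 3 hold for every group value.

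Immediate-early genes are transcribed within minutes of a stimulus, without new protein synthesis, and their short-lived mRNAs then decay. Fos and Jun proteins pair through leucine zippers to form AP-1, which binds the site TGANTCA, whereas the Egr proteins bind GC-rich sites through zinc fingers. In the heart this response is known to follow stretch, adrenergic stimulation and ischemia. AP-1 and Nrf2 are both basic leucine zipper factors, and Jun proteins can pair with Nrf2.

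Library totals were 6534684 to 8405857 counts over the listed genes. Nfe2l2 rose in mNrf2-TG by a Log2FC of 3.36 (SE 0.18), the NTG counts being 729 to 1392 and the mNrf2-TG counts 10912 to 12839 (edgeR's quasi-likelihood test, adjusted p = 2.96e-06), so every library matched its genotype label. Across all genes 8.48% were called higher and 8.73% lower in mNrf2-TG at an adjusted p under 0.05, the threshold used throughout. Library NTG 3 stood apart within its group. It was the outlying highest NTG library by Dixon's criterion for 211 of 9666 genes (2.18%), against 43 to 89 genes for each other NTG library. Values without NTG 3 are given for some of the genes and counts and for each named call that was lost without it.

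The stretches of 250 bases just before the transcription start of Jun, Junb and Fos are shown first. They were chosen because Jun and Junb were called lower in mNrf2-TG while Fos, the founding partner, was not called. The Log2FC of Fos (-0.48) was close to that of Jun (-0.45), with a wider interval. The stretches come from the RefSeq promoter table of build GRCm38.p6, which held 7 of the 10 genes. These windows contain no annotated exon and end 0, 30 and 0 bases from the GENCODE M21 gene start of Jun, Junb and Fos. Each is written 5′ to 3′ on the strand of its gene. Capitals mark TGACG, the core of the cAMP response element, in Junb and Fos, and the AP-1-like site TGACATCA in Jun.
Jun, chr4:95052223-95052472, minus strand: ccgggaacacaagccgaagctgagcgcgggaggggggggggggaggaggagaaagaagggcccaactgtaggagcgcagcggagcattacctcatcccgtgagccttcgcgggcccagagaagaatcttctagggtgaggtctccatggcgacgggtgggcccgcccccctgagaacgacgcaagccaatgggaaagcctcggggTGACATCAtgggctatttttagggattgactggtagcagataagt
Junb, chr8:84978749-84978998, minus strand: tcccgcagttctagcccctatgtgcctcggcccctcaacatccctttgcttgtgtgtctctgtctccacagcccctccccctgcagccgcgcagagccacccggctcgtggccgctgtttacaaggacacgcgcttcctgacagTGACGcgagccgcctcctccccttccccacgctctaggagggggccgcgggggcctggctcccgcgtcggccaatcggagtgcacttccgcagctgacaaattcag
Fos, chr12:85473640-85473889, plus strand: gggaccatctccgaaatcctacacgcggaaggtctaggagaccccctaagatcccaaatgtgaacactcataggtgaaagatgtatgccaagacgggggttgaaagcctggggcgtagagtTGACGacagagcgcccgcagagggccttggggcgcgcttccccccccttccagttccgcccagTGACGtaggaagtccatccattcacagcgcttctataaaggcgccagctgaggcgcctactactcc

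The AP-1-like site of Jun lay from base -45 to base -38 before the start, and 2.93% of 32851 promoters in the table held the same letters on either strand. TGACG was found at -106 in Junb and at -129 and -66 in Fos. In all, 4 of the 7 genes held it (Fos, Fosb, Junb and Atf3), and 17.8% of all promoters did. The Egr site GCGNGGGCG occurred in the windows of Fosb (base -50) and Fosl2 (base -79) and in 4.7% of all promoters. Bases are counted from the RefSeq start, and the windows of Fosl2, Jund and Atf3 end 671, 1210 and 34706 bases from the GENCODE M21 gene start, that of Fosl2 lying within an annotated exon. No window of the 7 genes held the complete AP-1 site TGANTCA (6.75% of all promoters), the complete element TGACGTCA (1.55%), the serum response element core known as the CArG box (1.47%) or TGACNNNGC, the core of the antioxidant response element (10.2%). A missing match says only that these letters were not in these windows, and a match was not tested for function.

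Of the 10 genes, 3 fell in mNrf2-TG hearts, 0 rose and 7 were not called. The 3 that fell were Fosl2, Jun and Junb, by 1.37-fold to 1.61-fold. The background was 8.73% of all genes called lower and 8.48% called higher. The Log2FC was below 0 for 8 of the 10 genes and above 0 for Jund and Egr1, with a median of -0.46 over the 10 against 0.00 over all genes tested (0.0012). Only for Fosl2 did the normalized counts of the groups not overlap, among the 10 genes, whereas 14.7% of all genes were lower without overlap and 15.0% higher without overlap. With NTG 3 left out 3 members were again called lower, whereas with NTG 1 left out 0 were.

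**Figure D1:**
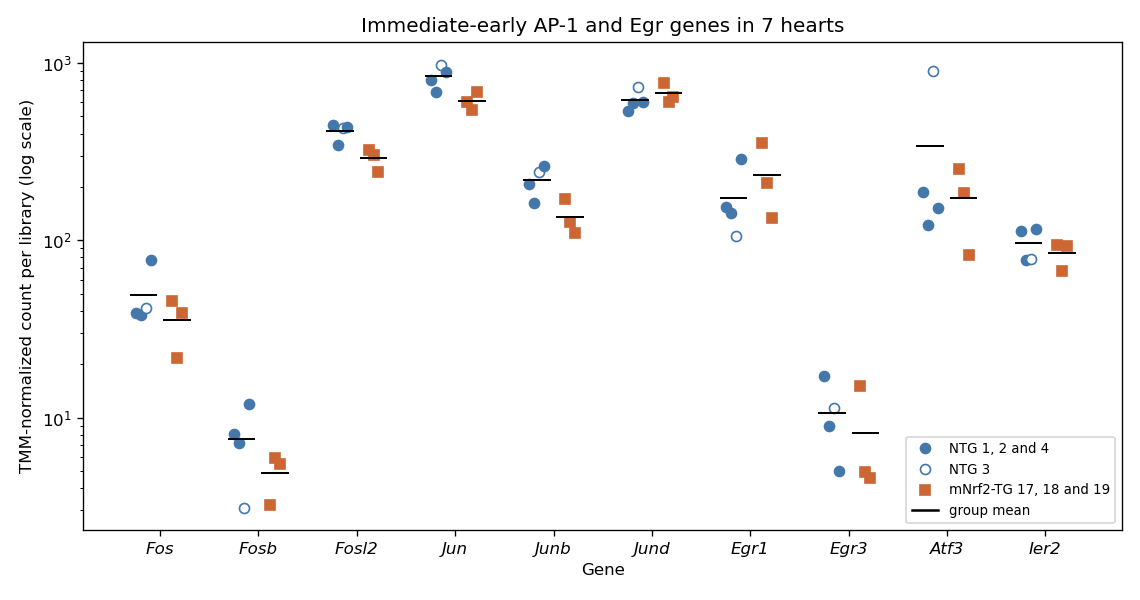
TMM-normalized counts (log scale) of the 10 genes in each library. Circles are NTG hearts with NTG 3 drawn open, squares are mNrf2-TG hearts and bars are group means. For Fosl2 all 3 mNrf2-TG values lie below all 4 NTG values, and for Atf3 the NTG 3 value of 897 lies far above the rest.

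Among the Jun-family genes, Jun encodes the AP-1 subunit that can act as a homodimer or with Fos proteins. Its normalized count, scaled to the mean library size, was 799, 689, 980 and 888 in NTG 1 to 4 and 604, 545 and 690 in mNrf2-TG 17, 18 and 19. The mNrf2-TG 19 value sat just above the lowest NTG value, that of NTG 2, and all other mNrf2-TG values were below every NTG value. The means were 839 ± 124 (SD, n = 4) and 613 ± 72.9 (SD, n = 3). Jun fell with a Log2FC of -0.45 (SE 0.12, 95% interval -0.73 to -0.17, edgeR's quasi-likelihood test, adjusted p = 0.034). Without NTG 3, the highest library, its Log2FC was -0.37 with an adjusted p of 0.042. The call was lost with NTG 1, NTG 4, mNrf2-TG 17 or mNrf2-TG 18 left out, with adjusted p up to 0.118. Jun lies on chr4:95049034-95052222, minus strand, as a single exon, and shares 689 bases with the antisense gene Junos.

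Junb encodes a subunit that pairs with Fos proteins but activates transcription more weakly than Jun. Its normalized count was 208, 162, 241 and 262 in NTG 1 to 4 and 170.0, 127 and 110 in mNrf2-TG 17 to 19. The heart mNrf2-TG 17 lay above NTG 2 and the other mNrf2-TG hearts lay below the whole NTG group. Junb had the lowest Log2FC of the 3 called genes, at -0.69 (SE 0.19, 95% interval -1.11 to -0.27, edgeR's quasi-likelihood test, adjusted p = 0.033), with means of 218 ± 43.6 (SD, n = 4) and 136 ± 31.0 (SD, n = 3). Without NTG 3 the Log2FC was -0.64 (adjusted p = 0.045 in edgeR), and the call was lost without NTG 1, NTG 4, mNrf2-TG 18 or mNrf2-TG 19. The gene lies on chr8:84974484-84978718, minus strand. It overlaps 351 bases of Prdx2, a peroxiredoxin gene on the opposite strand, for which the Log2FC was 0.20 (SE 0.06, adjusted p = 0.061). The sources used here do not say whether reads were counted by strand. Reads in the bases that Junb, Jun and Jund share with their partners may thus have come from either gene.

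Jund, the Jun-family gene that is known to be expressed at a steady level in resting tissue, was not called. Its normalized count was 534, 594, 733 and 606 in NTG 1 to 4 and 773, 604 and 644 in mNrf2-TG 17 to 19, and the groups overlapped widely. The Log2FC was 0.12 (SE 0.12), with a 95% interval from -0.14 to 0.39 (edgeR, adjusted p = 0.511). Jund has 1668 bases of annotated exon and shares 919 bases with the antisense gene Gm11175. Neither Gm11175 nor Junos was found by symbol among the genes tested.

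Among the Fos-family genes, Fosl2, which encodes the Fra-2 subunit that lacks the strong activation domain of Fos, changed in mNrf2-TG. Its normalized count was 447, 346, 432 and 436 in NTG 1 to 4 and 324, 303 and 242 in mNrf2-TG 17 to 19. Every mNrf2-TG heart lay below every NTG heart, and NTG 2 lay apart from the other 3 NTG hearts on the low side. The means were 415 ± 46.4 (SD, n = 4) and 290 ± 42.4 (SD, n = 3), a fall of 0.52 on the Log2FC scale (-0.52, SE 0.12, 95% interval -0.80 to -0.24, edgeR's quasi-likelihood test, adjusted p = 0.019). The Log2FC was -0.50 without NTG 3 (adjusted p = 0.022 in edgeR), and the call was lost without NTG 1 or mNrf2-TG 19, with an adjusted p of up to 0.066. Fosl2 lies on chr5:32135801-32157842, plus strand, and no other annotated gene overlaps it.

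Fos itself was low and was not called. Its normalized count was 39.1, 37.8, 41.2 and 77.7 in NTG 1 to 4 and 45.2, 21.7 and 39.0 in mNrf2-TG 17 to 19. NTG 4 was the high library of its group, mNrf2-TG 18 was the low one of the other group, and the remaining 5 hearts lay between 37.8 and 45.2. The Log2FC was -0.48 with a 95% interval from -1.20 to 0.25 (edgeR, adjusted p = 0.347). Fosb, whose product is a paralog of Fos, had a mean below 10 normalized counts, with a range of 3.09 to 11.9 among NTG hearts and of 3.23 to 5.91 among mNrf2-TG hearts. Its Log2FC was -0.61 with an interval from -1.72 to 0.49 (adjusted p = 0.433). A fall as large as that of Fosl2 lay inside the intervals of both genes.

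**Figure D2:**
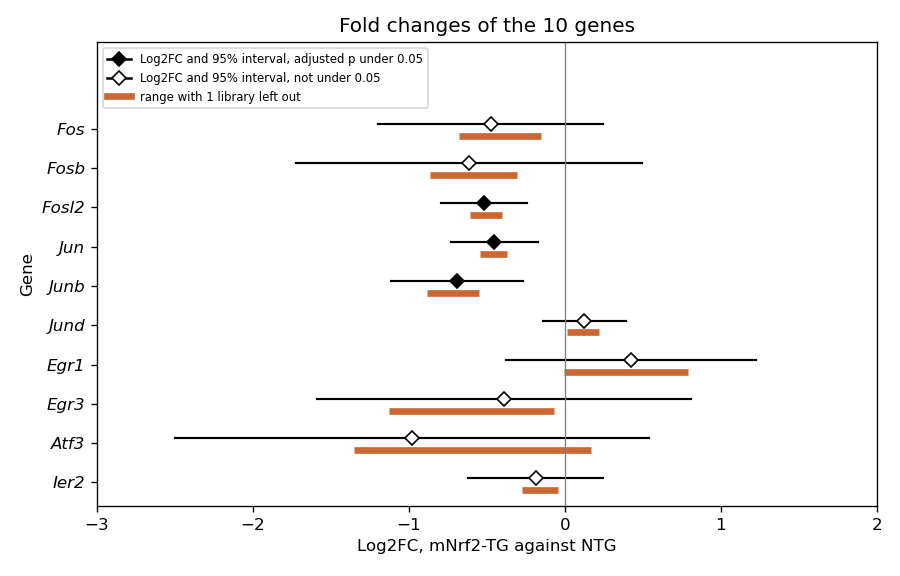
Log2FC of each gene (mNrf2-TG against NTG) with its 95% interval, filled where the adjusted p was under 0.05. The thick bar under each is the range of Log2FC when 1 library is left out. The ranges of Egr1 (-0.00 to 0.79) and Atf3 (-1.35 to 0.17) cross 0, and those of Fosl2, Jun and Junb stay below it.

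The Egr genes encode zinc finger factors of which Egr1 is induced by growth factors and by mechanical load. Egr1 was 154, 143, 105 and 288 in NTG 1 to 4 and 353, 211 and 134 in mNrf2-TG 17 to 19, in normalized counts. In each group 1 heart was far above the others, NTG 4 and mNrf2-TG 17, and the groups overlapped. The Log2FC was 0.42 with a 95% interval from -0.38 to 1.22 (edgeR, adjusted p = 0.459). It was 0.24 without NTG 3 and -0.0036 without mNrf2-TG 17, so even its sign rested on 1 heart. Egr3, a paralog best known from muscle spindles and activated lymphocytes, ranged from 4.98 to 17.2 normalized counts among NTG hearts and from 4.54 to 15.1 among mNrf2-TG hearts. Its Log2FC of -0.39 had an interval from -1.59 to 0.81 (adjusted p = 0.669).

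Atf3 encodes a stress-induced repressor of the ATF/CREB family that can pair with Jun proteins. Its normalized count was 187, 121, 897 and 151 in NTG 1 to 4 and 252, 184 and 82.6 in mNrf2-TG 17 to 19. NTG 3 lay far above the other 6 hearts, which ranged from 82.6 to 252 without separation by genotype. The Log2FC was -0.98 with all libraries (95% interval -2.50 to 0.54, edgeR, adjusted p = 0.355) and 0.17 without NTG 3 (adjusted p = 0.752). Ier2, a small nuclear protein gene induced together with Fos, was 113, 77.4, 78.4 and 116 in NTG 1 to 4 and 93.6, 67.0 and 92.6 in mNrf2-TG. These ranges overlapped, and its Log2FC was -0.18 with an interval from -0.62 to 0.25 (edgeR, adjusted p = 0.557).

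The levels of the 10 genes were then put side by side as normalized counts per kilobase of annotated exon. Jund was the highest, at 320 to 463 per kilobase over the 7 hearts, above Jun at 171 to 307 in every heart. Atf3 (38.3 to 416), Junb (47.7 to 114), Ier2 (44.0 to 76.5), Egr1 (23.5 to 78.7), Fosl2 (25.0 to 46.2) and Fos (9.22 to 33.0) followed in the order of their means, and the range of each overlapped that of the next. Egr3 (1.03 to 3.91) and Fosb (0.496 to 1.91) overlapped each other and lay below all other members. Exon length here is the union over all annotated transcripts, which lowers the value of genes with long alternative exons such as Fosl2.

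The spread between hearts of 1 group differed strongly among the genes. Atf3 had a coefficient of variation (CV) of 110% in NTG and 49.3% in mNrf2-TG, and Egr1 46.2% and 47.7%. Among genes with a mean of at least 50 normalized counts, these were at the percentile 99.9 and 99.1 for Atf3 and 98.7 and 99.0 for Egr1. Fosl2 (11.2% and 14.6%), Jun (14.8% and 11.9%) and Jund (13.5% and 13.1%) varied far less, with Ier2 (22.1% and 17.9%) in between. In the mNrf2-TG group, heart 17 held the highest value for 8 of the 10 genes and heart 19 the lowest for 5. In NTG, heart 4 held the highest value for 5 genes and heart 2 the lowest for 6. These ranks describe single hearts and were not tested.

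Structural features that the choice by symbol did not use were counted next, as a description. Jun, Jund and Ier2 have a single exon in every annotated transcript, as do 340 of 14623 tested genes (2.33%). AU-rich motifs in the 3′ untranslated region are bound by decay factors such as tristetraprolin. The pentamer ATTTA occurred in the longest 3′ untranslated region of 9 of the 10 genes, all but Ier2, and of 69.0% of tested genes. The longer motif TTATTTATT occurred in 2 of the 10, Fos and Fosl2, and in 7.92% of tested genes.

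Immediate-early genes outside the AP-1 and Egr families also fell in mNrf2-TG hearts. Of 37 other immediate-early genes measured, 15 fell, 3 rose and 19 were not called, against 8.73% and 8.48% of all genes, and their median Log2FC was -0.70. In 19 of them the normalized counts of mNrf2-TG were all below those of NTG, and in 2 all above, beside 14.7% and 15.0% of all genes. With 1 library left out, 13 to 17 fell and 1 to 6 rose. The list was drawn up with earlier results of these data known, and its difference from the 10 genes was not tested.

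Of these other immediate-early genes that fell, the 4 with the smallest p are given here. Errfi1, an inhibitor of the EGF receptor, was 548, 528, 491 and 465 normalized counts in NTG 1 to 4 and 137, 190.2 and 184 in mNrf2-TG 17 to 19. The groups were far apart, with a Log2FC of -1.57 (SE 0.12, edgeR, adjusted p = 5.0e-05). Sik1, a salt-inducible kinase induced by cAMP, was 536 to 850.3 in NTG and 169.7 to 230.2 in mNrf2-TG (Log2FC -1.75, SE 0.18, edgeR, adjusted p = 2.9e-04). Nr4a3, an orphan nuclear receptor, was 176 to 300.1 in NTG and 28.1 to 71.0 in mNrf2-TG (Log2FC -2.21, SE 0.28, edgeR, adjusted p = 9.7e-04). Zfp36, which encodes tristetraprolin, was 407 to 584 in NTG and 213 to 253 in mNrf2-TG (Log2FC -1.08, SE 0.14, edgeR, adjusted p = 0.0012). For all 4 genes the groups did not overlap and the call held under each of 14 other settings.

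In the opposite direction, 3 immediate-early genes rose. Arc, best known as a neuronal activity-regulated gene, was 36.8, 27.0, 100.02 and 36.8 in NTG 1 to 4 and 243, 332 and 163 in mNrf2-TG 17 to 19. NTG 3 was the highest of its group but still below every mNrf2-TG heart, and the Log2FC was 2.30 (SE 0.38, edgeR, adjusted p = 0.0043), or 2.88 without NTG 3. Btg1, an antiproliferative gene, rose with a Log2FC of 0.89 (SE 0.20, edgeR, adjusted p = 0.014), and Plk2, a polo-like kinase gene, with a Log2FC of 0.83 (SE 0.22, edgeR, adjusted p = 0.030). The call of Btg1 was lost without mNrf2-TG 17 or mNrf2-TG 18, and that of Plk2 when any one of 5 of the 7 libraries was left out.

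**Figure D3:**
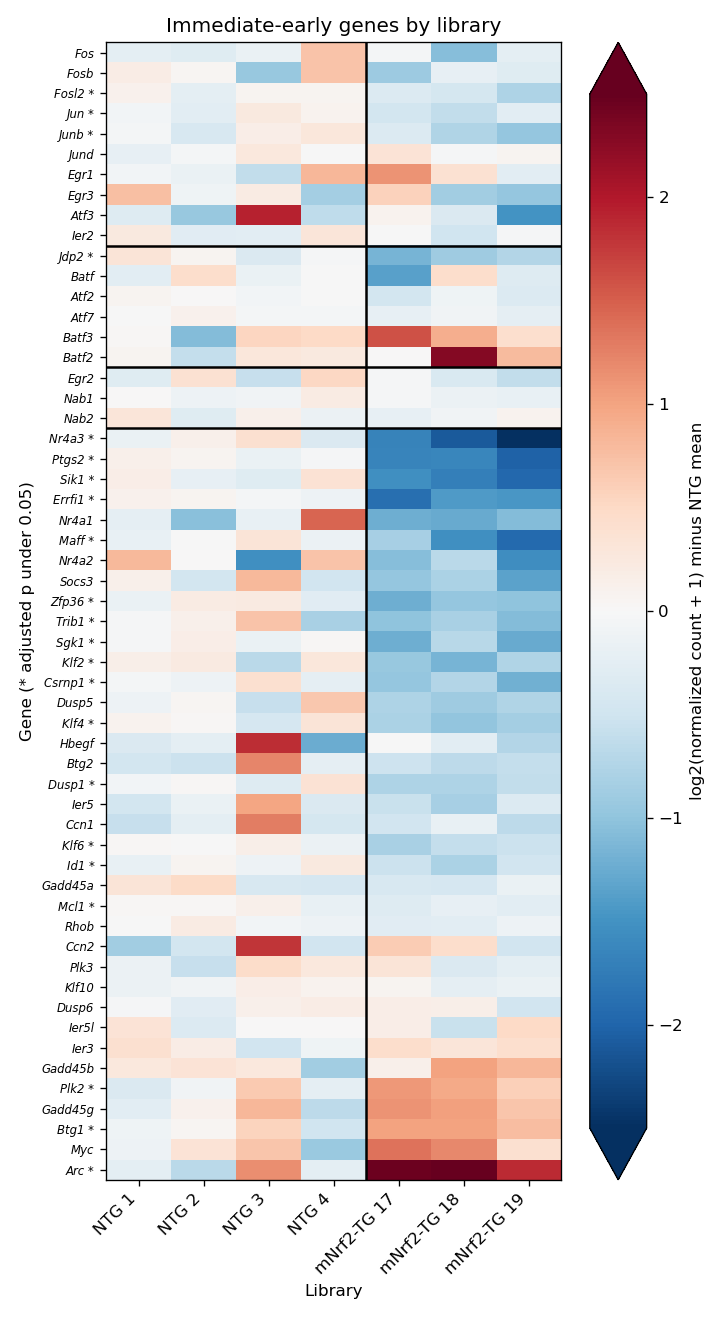
Each cell is log2(normalized count + 1) minus the NTG mean of that gene, for the 10 genes, 6 other AP-1 partner genes, 3 other Egr and Nab genes and 37 other immediate-early genes (top to bottom, blocks split by lines). Columns are the 7 libraries and stars mark an adjusted p under 0.05. NTG 3 is high for Atf3 and several other genes, and the called decreases such as Nr4a3, Sik1 and Errfi1 run through all 3 mNrf2-TG libraries.

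Of 6 other AP-1 partner genes measured, 1 was lower and 0 were higher, beside 8.73% and 8.48% of all genes. Jdp2, a repressor that pairs with Jun proteins, was 187, 158, 118 and 146 normalized counts in NTG 1 to 4 and 66.7, 80.8 and 89.9 in mNrf2-TG 17 to 19. The groups did not overlap, and Jdp2 fell with a Log2FC of -0.94 (SE 0.17, edgeR, adjusted p = 0.0064) that was past the threshold in each setting tried. None of 3 measured genes for Egr2 and the Egr corepressors Nab1 and Nab2 was called in edgeR, and none had an unadjusted p under 0.05. Fosl1, Egr4 and Dusp2 were looked for but were not among the genes tested.

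Upstream of these genes, 26 signalling and serum response genes gave 2 called higher, 3 called lower and a median Log2FC of -0.05. The shares over all genes were 8.48% called higher and 8.73% called lower. Map2k1 and Map2k2, the MEK kinases of the ERK pathway, rose with a Log2FC of 0.36 (SE 0.09, edgeR, adjusted p = 0.027) and 0.50 (SE 0.07, edgeR, adjusted p = 0.0025). Mef2a, a muscle transcription factor, Rps6ka3, an ERK-activated kinase, and Crtc2, a coactivator of CREB, fell with a Log2FC of -0.47, -0.46 and -0.33 (edgeR, adjusted p = 0.013, 0.038 and 0.042). In edgeR, the calls of Map2k2 and Mef2a held without every library in turn, and those of the other 3 did not. Without NTG 3 the adjusted p of Crtc2 was 0.064 in edgeR.

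Of 17 measured genes known as AP-1 or Egr targets, 6 fell and 10 were not called, with a median Log2FC of -0.26. Over all genes the share called lower was 8.73%. Icam1, an endothelial adhesion molecule, was 210.1 to 360.0 in NTG and 70.8 to 181 in mNrf2-TG (Log2FC -1.23, SE 0.28, edgeR, adjusted p = 0.016). Tgfb1 fell with a Log2FC of -0.55 (adjusted p = 0.013), and the others that fell were Ccl2 (-1.76), Mmp3 (-1.42), Plaur (-0.95) and Vegfa (-0.35), with an edgeR adjusted p of 0.030 to 0.049. Without NTG 3 the adjusted p of Vegfa was 0.059 and that of Plaur 0.051 in edgeR. Of the genes named here, only Icam1 kept its call without every library in turn.

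Heat shock genes, which respond to misfolded protein, and clock genes, which follow the time of day, were counted as well. The hour at which hearts were taken is not given in the sources used here. Of all 14637 genes tested, 7309 had a Log2FC below 0 and 8.73% were called lower. All 14 heat shock genes had a Log2FC below 0 and 5 were called lower (Hspa8, Hspa5, Dnaja1, Bag3 and Hspa1b), with a median of -0.66. Without NTG 3, 13 of the 14 were called lower, beside 1479 of the 14623 genes tested in that fit. The summed level of the 14 genes was 58600 to 68600 in NTG 1, 2 and 4, but 42100 in NTG 3 and 34700 to 43100 in mNrf2-TG. All 16 clock genes had a Log2FC below 0 and 2 were called lower, Per1 (-0.87, SE 0.18, adjusted p = 0.010) and Ciart (-1.76, SE 0.29, adjusted p = 0.0043). Without NTG 3, 5 clock genes were called lower. The part of these differences in the falls of Fosl2, Jun and Junb was not tested.

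**Figure D4:**
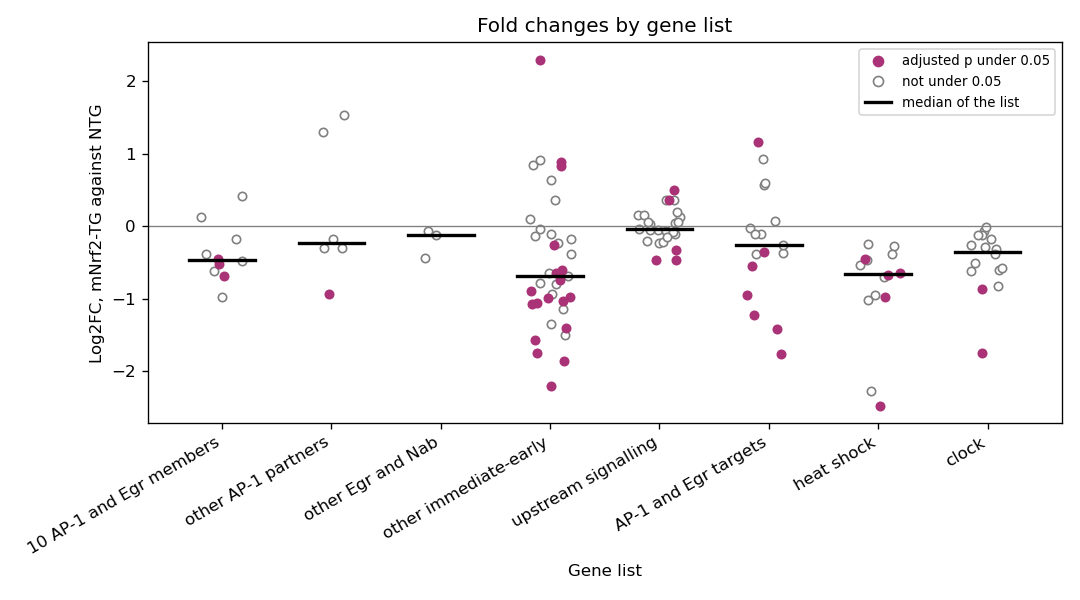
Log2FC of every measured gene by list, with filled points for an adjusted p under 0.05 and a bar at the median of each list. Medians are -0.46 for the 10 genes, -0.70 for the other immediate-early genes, -0.05 for upstream signalling, -0.66 for heat shock and -0.35 for clock genes.

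Some markers of the heart's cell types also moved with genotype. Their counts stand beside 8.48% of all genes called higher and 8.73% called lower. Of 6 cardiomyocyte markers 2 were lower and 0 higher, and their summed level was 496000 to 536000 in NTG and 432000 to 461000 in mNrf2-TG. Of 6 fibroblast markers 4 were higher (sums 7640 to 9940 and 10700 to 11300), and of 6 macrophage markers 4 were higher (1980 to 2530 and 3140 to 4130). Dcn made up most of the fibroblast sums and was not called (Log2FC 0.22, edgeR, adjusted p = 0.083). The 5 endothelial markers gave 1 higher and 2 lower (5910 to 6350 and 5540 to 5890). Smooth muscle markers, 0 of 4 called, reached 8670 in NTG 3 against 1670 to 2630 in the other NTG hearts and 5970 to 9950 in mNrf2-TG. Acta2 made up most of these sums, at 7947 in NTG 3 and 5470 to 9353 in mNrf2-TG (Log2FC 1.37, edgeR, adjusted p = 0.163). For Myh11, Tagln and Cnn1 the Log2FC was -0.10, -0.10 and -0.19. Of 3 measured atrial markers 1 was higher (685 to 1450 and 2030 to 3890) and of 3 skeletal muscle markers 2 were lower (628 to 1160 and 359 to 578). The atrial marker called was Nppa, which made up most of the atrial sums. The 2 others were not called, and Myl7 held 0 to 4 counts per library. Markers of red blood cells, neutrophils, lymphocytes and adipocytes gave 0 calls, and the lymphocyte and adipocyte sums were at most 11.5 normalized counts, with Adipoq and Plin1 each at 0 in 2 or more libraries. The part of cell composition in the results for the 10 genes was not tested.

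The genes whose pattern over the 7 libraries was most like the mean pattern of the 10 were Vps26a, Fah, Txnl1, Dnajc11, Ephb4, Hccs, Wipi1 and Adam17. Their Pearson r with that mean ran from 0.96 to 0.94 over 7 libraries that share the genotype difference, among 9659 genes ranked. Vps26a, of the retromer, was 918, 880.0, 969 and 967 in NTG 1 to 4 and 923, 854 and 849 in mNrf2-TG 17 to 19. Fah, of tyrosine catabolism, was 199, 141, 210.0 and 248 in NTG and 184, 88.7 and 133 in mNrf2-TG. In both, NTG 2 was the lowest of its group and mNrf2-TG 17 the highest of its group, which also held for 5 of the 10 genes (Fos, Fosl2, Junb, Atf3 and Ier2). None of the 8 was called, at adjusted p of 0.137 or more in edgeR. Of the 10 genes themselves, Junb (r = 0.95), Fosl2 (0.84) and Fos (0.80) followed the mean pattern most closely and Jund (0.14) and Fosb (0.16) least. Each of the 10 genes is itself part of that mean, which raises its r.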

How the data were processed

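RNA from heart tissue of 7 mice was sequenced by the authors as single reads of 50 bases from stranded poly(A) libraries. Per the labels and methods, they aligned reads with Novoalign 2.08.01, allowing up to 50 alignments per read, kept the best one and deposited raw counts per gene. The methods name a human build beside the mouse one, and the counting program is not given in the sources used here. The authors also deposited rlog values and a table of DESeq2 fold changes and p-values, of which only the gene names were used.

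From 14665 entries, 24 repeats of an Entrez gene were removed. The 14637 genes with a summed count above 1 were compared in edgeR 4.0.16 (TMM, quasi-likelihood test, two-sided, no covariates, Benjamini-Hochberg adjustment over all genes). The script was tested on simulated data. Totals of 6534684 to 8405857 counts leave genes of a few counts, such as Fosb and Egr3, with wide intervals. Groups came from the genotype labels. Positions and exons are from GENCODE M21 (GRCm38).

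The members and gene lists were chosen with earlier results of these data known. The motifs TGACG and TGACATCA and the search of 3′ untranslated regions were added after the data were seen. Named were all 10 members, Nfe2l2, the called genes of each list (if over 8, the 4 with the smallest p in each direction) and the 8 genes with the most similar pattern. Few single cell type markers were named: Nppa, Acta2 and Dcn for their part in a sum, and Myl7, Adipoq and Plin1 for few counts. Myh11, Tagln and Cnn1 were named beside Acta2. Not every marker that made up much of a sum was named. As other settings, DESeq2 1.42.0, limma-voom, other scalings, other filters and leaving out each library were tried. The result of 1 called gene of the AP-1 and Egr target list is not reported here.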

Additional observations from a re-analysis of the deposited data

Results flagged for a closer look

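Dixon's criterion marks about 1 in 20 groups of 4 by chance, and 4 values among the genes named above were marked. It was applied to the 4 NTG hearts alone, since a group of 3 is not tested. Atf3 was highest in NTG 3, at 897 normalized counts against 121 to 187 in the other NTG hearts, and Arc was highest there too, at 100.02 against 27.0 to 36.8. The other immediate-early genes Btg2, Ccn1, Ccn2, Hbegf and Ier5 were also marked as highest in NTG 3, and the chaperonin gene Hspe1 was marked as lowest there, at 461 against 774 to 830.0. Fos was highest in NTG 4, at 77.7 normalized counts, and Fosl2 was lowest in NTG 2, at 346 against 432 to 447 in the other NTG hearts. Why single hearts stood out was not tested.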

How the results depend on the processing

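The calls of Fosl2, Jun and Junb and their directions held under the DESeq2 Wald test, limma-voom, DESeq2 size factors, scaling by library total alone and each of 3 filters, and 3 members were called each time. Leaving out 1 library gave 0 to 3 called members, 1373 to 2950 called genes (2519 with all libraries) and 24 to 53 called genes of the 119 in the related lists (38 with all libraries). Without NTG 1 no member was called. Over the same fits the Log2FC of Egr1 ran from -0.0036 (without mNrf2-TG 17, adjusted p = 0.996 in edgeR) to 0.79, and that of Atf3 from -1.35 to 0.17 (without NTG 3, adjusted p = 0.752 in edgeR). The cause was not tested. Of the 8 genes most like the members, 0 stayed when deviations from the group means were used in place of levels, and 7 stayed with a mean count of at least 10. The 5 called heat shock genes became 2 under limma-voom, 3 under scaling by library total alone and 1 to 13 with 1 library left out, the highest count being that without NTG 3. The 2 called clock genes became 4 under the DESeq2 Wald test and up to 6 with 1 library left out, the 7 called AP-1 and Egr targets 4 under limma-voom and as few as 1 without mNrf2-TG 18, and the 5 called signalling genes as few as 2. Of 27 named related genes, 12 held their call without every library in turn. No paired analysis was possible because the NTG and mNrf2-TG libraries share no replicate number in the labels. Depth limits Fosb and Egr3, whose libraries held 3 to 15 counts each.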
